A study of Homo sapiens with 54 samples.

Results

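The genes described here build cholesterol and fatty acids or control how much of both a cell makes. They were 34 genes, chosen by name, and 32 of them had at least 1 probe set carrying no other gene symbol, of 18417 such genes on the array. Each gene was read from the probe set with the highest mean over the arrays. FDFT1 was not analysed here, and the probe set of HSD17B7 carried several symbols. The 32 measured genes were 7 of the mevalonate branch, 9 of the sterol branch, 6 of SREBP control and sterol transfer, 7 of fatty acid synthesis and 3 targets of the oxysterol receptor LXR.

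Cholesterol is made from acetyl-CoA through mevalonate, squalene and lanosterol, and fatty acids through malonyl-CoA. Both sets of enzymes are switched on by the SREBP transcription factors, which lie in the membrane of the endoplasmic reticulum with their escort SCAP. When sterols are plentiful, the INSIG proteins hold SCAP and SREBP there; when sterols run low the complex moves to the Golgi, where SREBP is cut free and enters the nucleus. INSIG1 is itself an SREBP target, and LXR, which senses oxidised sterols, raises sterol export and SREBF1.

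The study measured RNA of 9 human cell lines on 54 arrays, 2 arrays for each line at each time. Cells were taken without any agent at 0 h and with calcitriol, the hormonal form of vitamin D, at 8 h and 36 h; the dose was not given in the sources used here. GM07019, GM07348, GM10854 and GM12878 are lymphoblastoid lines, B cells immortalised with Epstein-Barr virus, Ag09309 and Ag09319 are fibroblast lines, HL60 is a promyelocytic leukaemia line, K562 a chronic myeloid leukaemia line and HEP-G2 a hepatoma line. Each line is 1 source of cells, so HEP-G2 alone stands for hepatic cells. Untreated arrays at 8 h and 36 h were not analysed here, so calcitriol and time in culture cannot be told apart in any change below. The titles of the GM10854 arrays gave a different line number from their cell line field, which was used. Titles of the other 6 lines than HEP-G2, Ag09319 and GM12878 had no date (first title style). Those of HEP-G2, Ag09319 and GM12878 shared a date (second title style), and what it stands for was not given. In the comparison of Ag09309 with Ag09319, line and title style cannot be told apart. Of the 8 lines set against HEP-G2, Ag09319 and GM12878 share its title style and the other 6 do not, so title style can enter that mean.

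Levels are the authors' log2 values, on which a difference of 1 is a 2-fold ratio. CYP24A1, the calcitriol-degrading enzyme induced by the vitamin D receptor, rose over the 9 lines at 36 h by 2.79 ± 0.49 (SE, n = 9 lines; limma adjusted p = 0.00569), and the line changes ran from 0.57 in HEP-G2 to 6.44 in HL60. HEP-G2 already had more CYP24A1 RNA at 0 h, by 3.14 ± 0.25 over the mean of the other 8 lines. VDR, the receptor itself, rose over the 9 lines by 0.44 ± 0.10 (adjusted p = 0.0355). By a rule that fixed the number at 3, the 3 groups with the lowest correlation between their 2 arrays were taken. In each, the array less like the other arrays of its line is said below to stand apart. These were array 1 of K562 at 36 h, array 2 of HEP-G2 at 0 h and array 2 of Ag09319 at 8 h. Their groups had correlations of 0.969, 0.963 and 0.930, against 0.978 in K562 at 0 h and a median of 0.985 over the 27 groups. The other arrays of a line include other times, so the rule can also pick an array with a larger change. Markers of the labelled cell type were high in each class of line, with 1 exception in what else was there. The B cell gene MS4A1, which encodes CD20, read 8.15 and 8.07 on the Ag09309 arrays at 0 h but 3.38 and 3.29 at 8 h and 3.10 and 2.85 at 36 h; in GM07019 at 0 h it read 10.10 and 9.94. The mean of 7 B cell markers was 5.87 on both Ag09309 arrays at 0 h, against 4.13 to 4.49 on its 4 later arrays, so these 2 arrays went against a pure fibroblast label. In RNA of a whole culture, a share of other cells and a change of RNA per cell cannot be told apart. Many results that rest on these 5 arrays are given with and without them, and the others only with them.

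The first question was whether the genes changed with calcitriol in all lines together. After 36 h the genes of the set lay above their 0 h level more often than not, but few passed the test over lines. Over the 9 lines, 28 of 32 had a mean change above 0, with a median of 0.15, against 53.8% and a median of 0.0095 for all 19460 probe sets tested. INSIG1 and CYP51A1 rose, 2 of 32 members, and none fell; 0.468% of all probe sets were called in this comparison. The plot of mean changes sets these 9-line values beside those of the lymphoblastoid lines.

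**Figure D1:**
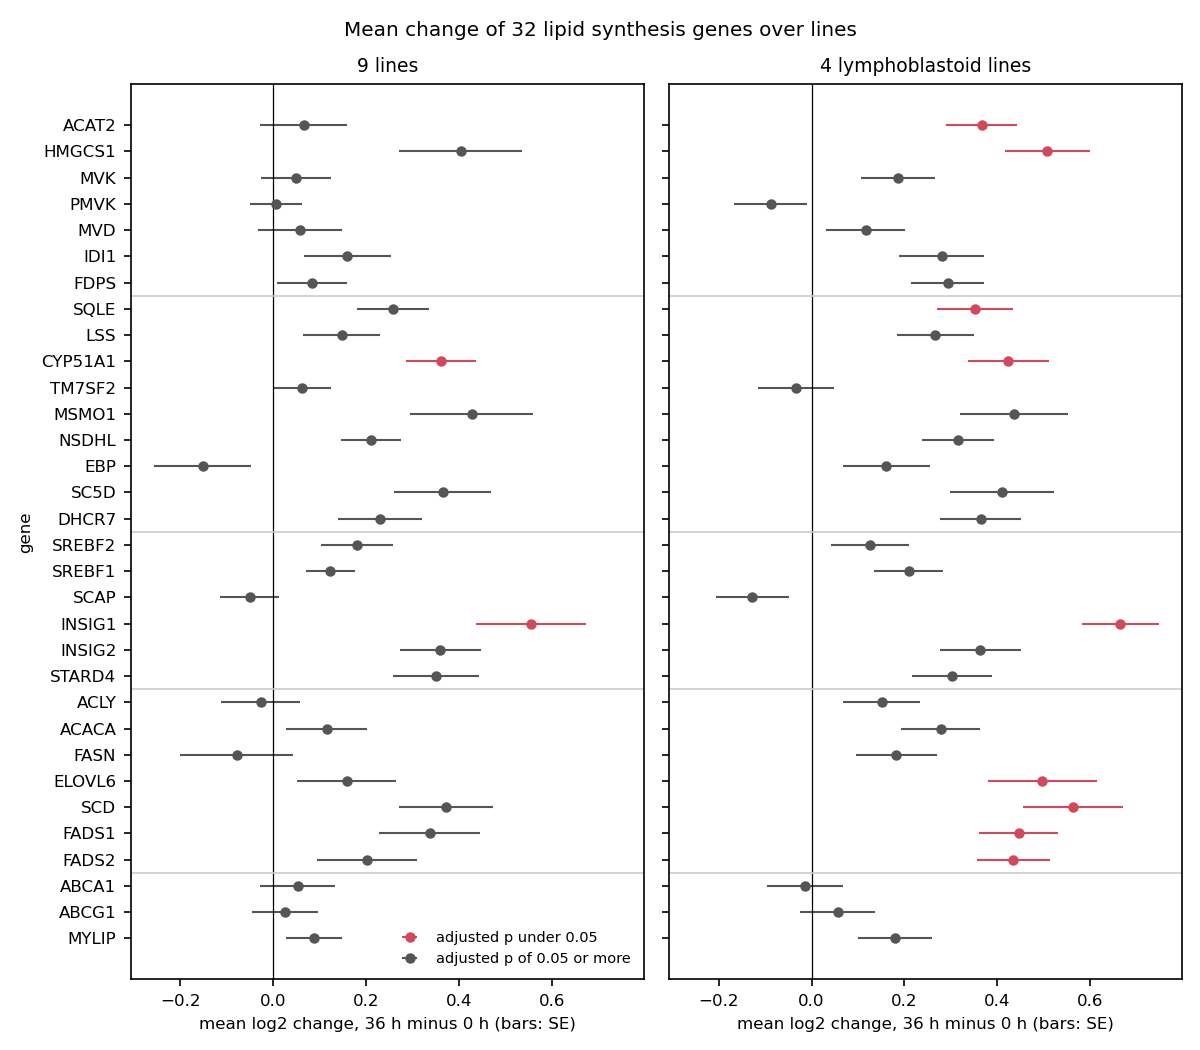
Mean log2 change from 0 h to 36 h of the 32 measured genes (rows, in the order of the pathway, grey lines between the 5 roles) over 9 lines (left) and over the 4 lymphoblastoid lines (right); bars are SE and red points have a limma adjusted p under 0.05. INSIG1 and CYP51A1 are red on the left, and 9 genes are red on the right, among them INSIG1 at 0.66 and SCD at 0.56.

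INSIG1 (Entrez 3638, probe set 8137526), the sterol-dependent brake on SREBP, changed by 0.89 in K562, 0.71 in GM10854, 0.70 in Ag09309, 0.68 in GM07348, 0.64 in GM07019, 0.63 in GM12878, 0.61 in Ag09319, 0.31 in HL60 and -0.19 in HEP-G2. It was higher at 36 h in 8 of 9 lines, and only in HEP-G2 was the mean lower. In HEP-G2, INSIG1 was dim, below the array median on all 6 arrays, so its change there says little. The mean change over the 9 lines was 0.55 ± 0.12 (SE, adjusted p = 0.0303), and 0.56 ± 0.13 without both Ag09309 arrays at 0 h (adjusted p = 0.0373). CYP51A1 (Entrez 1595, probe set 8180268), the lanosterol demethylase of the sterol branch, changed by 0.02 in Ag09309, 0.21 in HL60, 0.30 in Ag09319, 0.32 in GM07348, 0.34 in GM07019, 0.48 in HEP-G2, 0.52 in GM12878, 0.53 in GM10854 and 0.55 in K562. All 9 values were above 0, with a mean of 0.36 ± 0.08 (adjusted p = 0.0254), and 0.39 ± 0.08 without both Ag09309 arrays at 0 h (adjusted p = 0.0118). The gene's other probe set, with a mean level of 7.25, changed by 0.21 ± 0.08 and did not pass (adjusted p = 0.252).

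Both calls needed most of the lines. Leaving out GM07019, GM07348, GM10854 or GM12878 left 0 called members, leaving out Ag09309 or K562 left 1, and leaving out Ag09319 gave 3. Both genes passed without the 3 arrays that stood apart. The next members in order were INSIG2, the second sterol-dependent retention protein, at 0.36 ± 0.09 (adjusted p = 0.0700) and STARD4, a carrier of sterols between membranes, at 0.35 ± 0.09 (adjusted p = 0.106); each was above 0 in 9 of 9 lines. The 3 LXR targets, the sterol exporters ABCA1 and ABCG1 and the receptor-degrading ubiquitin ligase MYLIP, had mean changes of 0.05, 0.03 and 0.09. ABCG1 lay below the array median on 54 of 54 arrays, ABCA1 on 38 and MYLIP on 5.

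Neither the SREBP genes nor their escort passed the test. SREBF2, which encodes the SREBP of sterol synthesis, changed by 0.18 ± 0.08 over the 9 lines (adjusted p = 0.299), with line values from -0.05 in HL60 to 0.55 in K562. SREBF1, which encodes the SREBPs of fatty acid synthesis, changed by 0.12 ± 0.05 (adjusted p = 0.299), from -0.06 in Ag09319 to 0.29 in GM07348. SCAP changed by -0.05 ± 0.06 (adjusted p = 0.752), from -0.24 in HL60 to 0.31 in Ag09309. The line values of each of these 3 genes lay on both sides of 0.

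The promoters of the 2 genes called over 9 lines, of the most changed desaturase gene and of SREBF2 are shown because their known regulators act there. They are RefSeq sequences of build GRCh38.p14, and 28 of the 32 measured members had such windows, 38 in all, each from 250 bases before to 50 after a gene start. Capitals mark matches on either strand to the CCAAT box (CCAAT), the E-box CACGTG, or the sterol response element TCACNCCAC; the DR3 repeat bound by the vitamin D receptor (cores GNTCA, 4 bases between them) was searched too.
INSIG1, chr7:155297628-155297927, plus strand: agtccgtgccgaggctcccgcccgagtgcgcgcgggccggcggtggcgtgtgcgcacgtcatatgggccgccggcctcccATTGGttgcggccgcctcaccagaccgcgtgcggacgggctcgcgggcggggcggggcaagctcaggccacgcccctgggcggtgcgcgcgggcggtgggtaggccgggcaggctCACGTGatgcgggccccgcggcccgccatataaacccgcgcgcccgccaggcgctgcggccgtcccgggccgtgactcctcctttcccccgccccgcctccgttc
CYP51A1, chr7:92134428-92134727, minus strand: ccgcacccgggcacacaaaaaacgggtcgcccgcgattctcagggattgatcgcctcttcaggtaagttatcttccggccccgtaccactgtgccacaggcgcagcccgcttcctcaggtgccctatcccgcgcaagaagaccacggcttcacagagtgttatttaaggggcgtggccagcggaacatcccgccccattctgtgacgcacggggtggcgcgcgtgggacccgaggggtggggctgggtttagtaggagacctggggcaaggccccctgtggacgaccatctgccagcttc
SCD, chr10:100346983-100347282, plus strand: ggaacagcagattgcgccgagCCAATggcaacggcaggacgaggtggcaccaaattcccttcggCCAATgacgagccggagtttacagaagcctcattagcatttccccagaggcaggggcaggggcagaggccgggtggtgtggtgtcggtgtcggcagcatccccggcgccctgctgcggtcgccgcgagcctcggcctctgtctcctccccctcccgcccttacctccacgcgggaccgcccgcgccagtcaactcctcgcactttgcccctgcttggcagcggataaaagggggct
SREBF2, chr22:41832855-41833154, plus strand: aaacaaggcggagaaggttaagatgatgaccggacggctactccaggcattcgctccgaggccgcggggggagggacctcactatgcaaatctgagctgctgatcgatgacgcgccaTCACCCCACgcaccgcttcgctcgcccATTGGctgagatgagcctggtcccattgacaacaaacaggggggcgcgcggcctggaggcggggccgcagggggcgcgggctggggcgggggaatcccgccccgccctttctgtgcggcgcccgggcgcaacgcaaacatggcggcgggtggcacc

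A CCAAT box, the site of the factor NF-Y that binds beside SREBP, was present in windows of 20 of 28 members, against 39.7% of all genes. It was in 24 of their 38 windows, against 34.6% of 35116 windows of all genes. The E-box letters were in windows of 5 of 28 members, ABCA1, INSIG1, LSS, SC5D and SCAP, against 8.77% of all genes. They were in 6 of the 38 member windows, against 7.26% of all windows. The sterol response element letters were found in 1 of 28 members, SREBF2, against 1.39% of all genes. They were in 1 of the 38 member windows, against 1.13% of all windows. The DR3 letters were in 0 of the 38 member windows and in 0.635% of all windows. The INSIG1 window held a CCAAT box at -170 and an E-box at -55 from the start, the SCD window held 2 CCAAT boxes, and the CYP51A1 window held none of the 4 motifs. These matches describe the letters only, and no motif overlapped another in the windows shown.

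At 8 h no member was called over the 9 lines (limma; 0% of all probe sets were called, and 542 had an unadjusted p under 0.05). Only 5 of 32 members had a mean above 0 at that time, against 53.1% of all probe sets, with a median of -0.07, and SCD had the lowest mean at -0.23 ± 0.10 (adjusted p = 1). These values at 8 h include the Ag09319 array that stood apart and the Ag09309 arrays with B cell markers, and are given only with them. The lowest line was Ag09309 for HMGCS1, at -1.02 against a line median of -0.03. It was Ag09319 for MSMO1, at -0.92 against -0.13, but K562 for SCD, at -0.68 against -0.28. From 8 h to 36 h, 5 of 32 members rose and none fell, against 0.37% of all probe sets called. They were SCD, the desaturase that makes oleate, by 0.60 ± 0.10 (adjusted p = 0.00258), CYP51A1 by 0.43 ± 0.08 (adjusted p = 0.00495), SQLE, the squalene epoxidase, by 0.38 ± 0.08 (adjusted p = 0.0241), MSMO1, a sterol demethylation enzyme, by 0.64 ± 0.13 (adjusted p = 0.0259), and INSIG1 by 0.54 ± 0.12 (adjusted p = 0.0389). The other CYP51A1 probe set changed by 0.25 ± 0.08 from 8 h to 36 h and did not pass (limma adjusted p = 0.133). This contrast and the one against 0 h share the 36 h arrays.

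The rise from 8 h leaned on the libraries that stood apart. Without those 3 arrays 2 members were called, SCD at 0.51 ± 0.09 (adjusted p = 0.0109) and CYP51A1 at 0.33 ± 0.06 (adjusted p = 0.0102). INSIG1 was then at 0.47 ± 0.11 (adjusted p = 0.0937), MSMO1 at 0.42 ± 0.10 (adjusted p = 0.0846) and SQLE at 0.26 ± 0.07 (adjusted p = 0.208). Leaving out K562, Ag09319 or GM12878 left 2 called members and GM07348 or GM10854 left 3, while leaving out HL60 gave 9 and HEP-G2 11. Without both Ag09309 arrays at 0 h, 9 were called.

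The second question was what happened in the 4 lymphoblastoid lines. Here 9 of 32 members rose at 36 h and none fell, against 1.14% of all probe sets called, and 28 of 32 lay above 0 with a median of 0.29, against 47.3% and -0.0093 for all probe sets. The risers came from 4 of the 5 roles: HMGCS1 and ACAT2 of the mevalonate branch, SQLE and CYP51A1 of the sterol branch, INSIG1 of the control genes, and SCD, ELOVL6, FADS1 and FADS2 of fatty acid synthesis. None of the 3 LXR targets passed. Of these, ABCA1 and ABCG1 were dim, with lymphoblastoid line means at 0 h of 4.04 to 4.39 and 4.60 to 4.78, so their lack of change says little. None of the 5 arrays that stood apart or carried B cell markers in a fibroblast line belongs to these lines.

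INSIG1 read 7.94 to 8.27 on the 8 lymphoblastoid arrays at 0 h (median 8.07), 7.77 to 8.45 at 8 h (median 8.13) and 8.54 to 8.99 at 36 h (median 8.75). Every 36 h array lay above every 0 h and 8 h array. The mean change was 0.66 ± 0.08 (adjusted p = 0.000214), the call with the lowest adjusted p among the members, and it held in each alternative tried. SCD read 7.60 to 8.35 at 0 h (median 8.09) and 8.32 to 8.87 at 36 h (median 8.57), so 0 h and 36 h arrays overlapped slightly across lines. Its line changes were 0.89 in GM07019, 0.64 in GM10854, 0.41 in GM12878 and 0.32 in GM07348, with a mean of 0.56 ± 0.11 (adjusted p = 0.0112).

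HMGCS1, which makes HMG-CoA at the entry to the mevalonate branch, read 7.98 to 8.78 at 0 h (median 8.46) and 8.55 to 9.31 at 36 h (median 8.98), and rose by 0.51 ± 0.09 (adjusted p = 0.00718). ACAT2, the cytosolic thiolase before it, read 7.32 to 8.19 at 0 h and 7.86 to 8.43 at 36 h, and rose by 0.37 ± 0.08 (adjusted p = 0.0219). In the sterol branch CYP51A1 read 7.93 to 8.67 at 0 h and 8.38 to 9.21 at 36 h, a rise of 0.42 ± 0.09 (adjusted p = 0.0205). SQLE read 8.30 to 8.88 at 0 h and 8.83 to 9.32 at 36 h, a rise of 0.35 ± 0.08 (adjusted p = 0.0437). For each of these 4 genes the ranges of the 2 times overlapped across lines, while the change was above 0 in 4 of 4 lines. The other CYP51A1 probe set changed by 0.18 ± 0.09 and did not pass (adjusted p = 0.361).

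The desaturases and the elongase of unsaturated and long-chain fatty acids rose together. FADS2, the first desaturase of polyunsaturated fatty acid synthesis, read 8.27 to 8.97 at 0 h and 8.69 to 9.38 at 36 h and rose by 0.43 ± 0.08 (adjusted p = 0.00795). FADS1, the second, read 7.09 to 7.63 at 0 h and 7.39 to 8.15 at 36 h and rose by 0.45 ± 0.09 (adjusted p = 0.0111). ELOVL6, which lengthens palmitate, was dim, at 4.29 to 5.37 at 0 h and 4.99 to 5.64 at 36 h, and rose by 0.50 ± 0.12 (adjusted p = 0.0485). The early enzymes of the branch did not pass: ACLY, which supplies acetyl-CoA, changed by 0.15 ± 0.08, ACACA, which makes malonyl-CoA, by 0.28 ± 0.08 and FASN, the fatty acid synthase, by 0.18 ± 0.09 (adjusted p = 0.413, 0.143 and 0.347).

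Among the control genes, INSIG2 had a median of 6.09 at 0 h (lowest 5.71, highest 6.24) and of 6.43 at 36 h (highest 6.69), a change of 0.36 ± 0.09 that missed the threshold (adjusted p = 0.0524). SREBF1 read 5.72 to 6.13 at 0 h and 5.97 to 6.55 at 36 h, a change of 0.21 ± 0.07 (adjusted p = 0.211). SREBF2 read 7.27 to 7.78 and 7.58 to 7.91, a change of 0.13 ± 0.08 (adjusted p = 0.506), and SCAP 6.82 to 7.11 and 6.70 to 6.99, a change of -0.13 ± 0.08 (adjusted p = 0.472). DHCR7, which acts on the sterol from which skin forms vitamin D, changed by 0.36 ± 0.09 (adjusted p = 0.0517).

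The count of 9 depended on which lines entered. It was 1 without GM10854, 3 without GM07019, 4 without GM12878 and 15 without GM07348. At 8 h no member was called (0.0257% of all probe sets), and 12 of 32 lay above 0, against 47.0% of all probe sets. From 8 h to 36 h 32 of 32 lay above 0, against 50.3% of all probe sets, and 6 rose, against 0.283% called: INSIG1 by 0.63, SCD by 0.66, HMGCS1 by 0.53, DHCR7 by 0.47, FADS1 by 0.46 and FADS2 by 0.43, with adjusted p from 0.00144 to 0.0298. That count was 1 without GM10854 or GM12878, 3 without GM07348 and 5 without GM07019. The B cell markers CD79A, CR2 and PAX5 also rose in these lines at 36 h, 3 of 7 on their list with a median of 0.27, and their part in the result was not tested. Of 16 proliferation genes none was called there, and 4 lay above 0.

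Whether the lymphoblastoid lines changed more than the other 5 was tested directly. No member differed at 36 h (limma; 0.0154% of all probe sets did) or at 8 h (0%), so the larger count in the lymphoblastoid lines is not shown to be a difference between the classes. The median difference at 36 h was 0.19, higher in the lymphoblastoid lines, with 26 of 32 members above 0, against 39.8% of all probe sets.

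**Figure D2:**
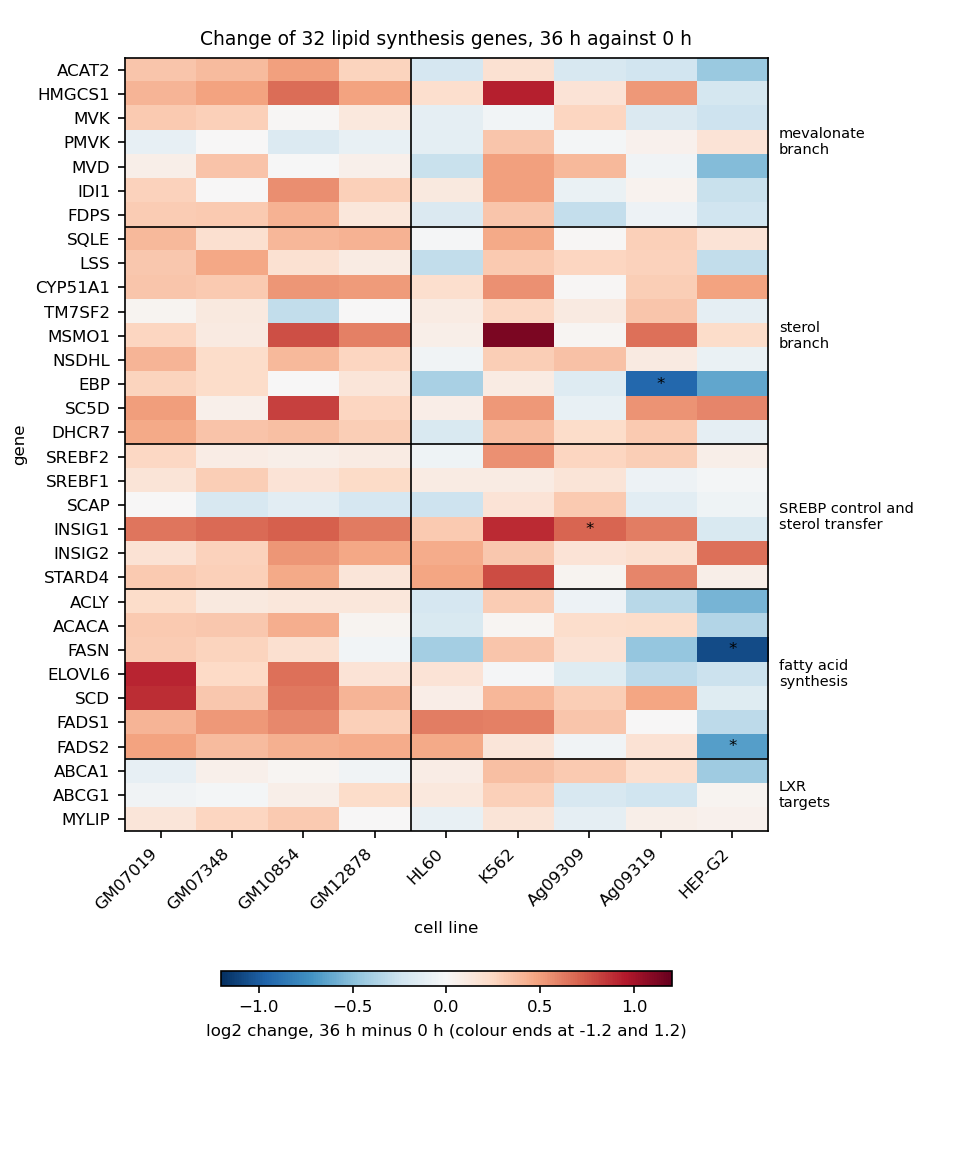
Log2 change from 0 h to 36 h of the 32 measured genes (rows, by role) in each of the 9 lines (columns, lymphoblastoid lines to the left of the vertical line); red is higher and blue lower at 36 h, and a star marks a limma adjusted p under 0.05 in that line. The 4 lymphoblastoid columns and K562 are mostly red, and the stars are INSIG1 in Ag09309, EBP in Ag09319, and FASN and FADS2 in HEP-G2.

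Within single lines, where 2 arrays stand against 2, most of the set did not pass. At 36 h against 0 h the number of members above 0 was 29 in GM07019, 30 in GM07348, 28 in GM10854, 28 in GM12878, 30 in K562, 21 in Ag09309, 21 in Ag09319, 16 in HL60 and 10 in HEP-G2. No member was called in GM07019 (0.0514% of all probe sets), GM07348 (0.118%), GM10854 (0.0668%), GM12878 (0.0514%), HL60 (0.868%) or K562 (0.0411%). Without the 3 arrays that stood apart, 16 of 32 members lay above 0 in K562 in place of 30. With those arrays left out more was called at 36 h against 0 h. These were ELOVL6 and SCD in GM07019, INSIG1 in GM07348, 5 members in GM10854 and FADS1 in HL60. In Ag09319, 4 more were called, where MSMO1, INSIG1, STARD4 and HMGCS1 rose. None of these comparisons lost an array, so the changes were the same and the calls differed through the shared estimate of the spread.

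In Ag09309, INSIG1 read 6.98 and 6.97 at 0 h, 6.74 and 6.66 at 8 h and 7.60 and 7.75 at 36 h, so both 36 h arrays were above all earlier ones. It rose by 0.70 ± 0.21 against 0 h (adjusted p = 0.0421; 4.91% of all probe sets called) and by 0.98 ± 0.21 against 8 h (adjusted p = 0.0207; 0.38%). Without the 0 h arrays that carried B cell markers the first contrast has no value, and the second was 0.98 ± 0.21 (adjusted p = 0.0256). Each call was lost when any 1 of the 4 arrays it compares was left out, with changes from 0.63 to 0.78 against 0 h (adjusted p up to 0.262) and from 0.90 to 1.05 against 8 h (adjusted p up to 0.242). At 36 h, 11 of 16 proliferation genes fell in Ag09309 and 16 of 16 in Ag09319, and their part in these results was not tested. The Ag09309 count uses the 0 h arrays that carried B cell markers. The mean of the 16 genes in Ag09309 was 7.74 and 7.67 at 0 h, 7.33 and 7.49 at 8 h, and 6.95 on both 36 h arrays. In Ag09319, EBP, the sterol isomerase, read 6.70 and 6.51 at 0 h, 6.30 and 5.86 at 8 h and 5.67 and 5.64 at 36 h. It fell by 0.95 from 0 h to 36 h (SE 0.19, adjusted p = 0.00105; 4.49% of all probe sets called), but not in a fit of the 6 arrays of that line alone. The 2 fibroblast lines did not differ in the change of any member (limma; 2.34% of all probe sets did). Without the arrays that stood apart EBP differed, at 0.80 ± 0.23 higher in Ag09309 (adjusted p = 0.0390). That comparison lost no array, so its size was the same and the call differed through the shared estimate of the spread.

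From 8 h to 36 h, 11 members rose in Ag09319, where 18% of all probe sets were called. The 5 with the greatest change were MSMO1 by 1.58, SC5D, a late sterol desaturase, by 1.23, SCD by 1.07, HMGCS1 by 1.04 and STARD4 by 0.79. The 8 h array that stood apart read lowest for all 5: HMGCS1 was 6.53 on array 1 and 5.22 on array 2, and SCD 6.13 and 5.22. With it alone left out none of the 11 passed, with MSMO1 at 0.60 (adjusted p = 0.575) and DHCR7, which makes cholesterol from its last precursor, at 0.65 (adjusted p = 0.154). With all 3 arrays that stood apart left out, DHCR7 rose by 0.65 ± 0.20 (adjusted p = 0.0388) and EBP fell by 0.64 (adjusted p = 0.0497), and none of the 5 passed.

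K562 showed the same dependence. INSIG1 read 8.81 and 8.56 at 0 h, 8.24 and 8.05 at 8 h, and 10.05 and 9.11 at 36 h, the first of these on the array that stood apart. From 8 h to 36 h INSIG1 rose by 1.44, FADS1 by 1.28, STARD4 by 1.21 and SCD by 1.07 (adjusted p from 0.000193 to 0.0449; 0.139% of all probe sets called). With that array alone left out none of the 4 passed: INSIG1 was at 0.96 (adjusted p = 0.262), FADS1 at 1.03 (adjusted p = 0.147), STARD4 at 0.59 and SCD at 0.67. With all 3 arrays that stood apart left out, which also lowers the estimate of the spread, INSIG1 (SE 0.18, adjusted p = 0.0188) and FADS1 (SE 0.18, adjusted p = 0.0118) passed at the same changes.

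No member was called from 8 h to 36 h in GM07019 (0.0103% of all probe sets), GM07348 (0.0206%), GM10854 (0.00514%), GM12878 (0.0257%) or HL60 (0.2%), while without the 3 arrays that stood apart SCD, INSIG1, HMGCS1 and CYP51A1 rose in GM12878. At 8 h against 0 h no member was called in any line, while without those 3 arrays ACAT2, IDI1 and HMGCS1 fell in Ag09309. On all arrays, the share of probe sets called at 8 h against 0 h was 0% in GM07019, GM10854, GM12878, K562 and HEP-G2. It was 0.00514% in GM07348, 0.236% in HL60, 0.324% in Ag09319 and 1.53% in Ag09309. Neither GM12878 nor Ag09309 lost an array without those 3 arrays. Their changes were the same, and the calls differed through the shared estimate of the spread.

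The changes of HL60 and K562, the 2 myeloid leukaemia lines, were compared member by member, and none differed (limma; 0.185% of all probe sets did). In HL60, INSIG1 read 7.71 and 7.86 at 0 h, 8.19 and 8.13 at 8 h and 8.10 and 8.09 at 36 h, so the later arrays were above both 0 h arrays without passing the test.

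**Figure D3:**
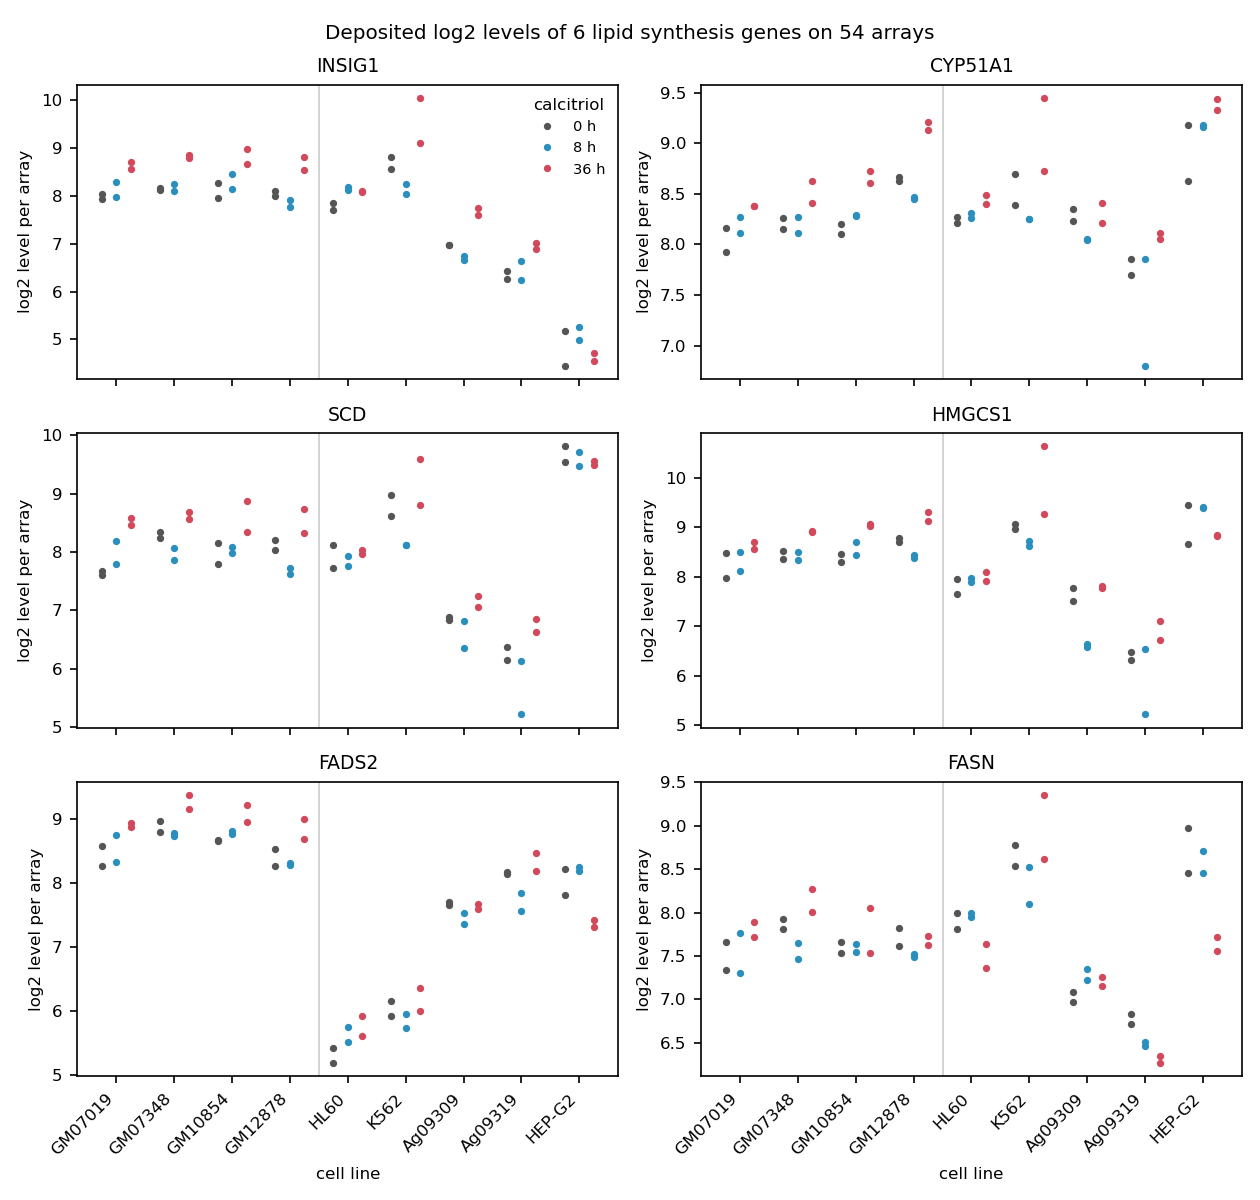
Deposited log2 level of 6 genes on each of the 54 arrays, by line and time (grey 0 h, blue 8 h, red 36 h; 1 point per array, lymphoblastoid lines left of the grey line). INSIG1 at 36 h lies above 0 h in the 4 lymphoblastoid lines and is near 5 in HEP-G2, and FASN and FADS2 fall in HEP-G2 at 36 h.

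In HEP-G2, the hepatoma line, 2 of the 7 fatty acid synthesis genes fell and none rose. FASN read 8.97 and 8.45 at 0 h, 8.46 and 8.71 at 8 h and 7.72 and 7.56 at 36 h. It fell by 1.07 against 0 h (SE 0.20, adjusted p = 0.00142; 1.84% of all probe sets called) and by 0.94 against 8 h (SE 0.20, adjusted p = 0.00492; 1.65%). FADS2 read 8.23 and 7.82 at 0 h, 8.19 and 8.26 at 8 h and 7.32 and 7.42 at 36 h. It fell by 0.66 against 0 h (SE 0.17, adjusted p = 0.0356) and by 0.86 against 8 h (SE 0.17, adjusted p = 0.00302). Without the 0 h array that stood apart and its 2 counterparts in other lines, FASN fell by 1.33 (adjusted p = 7.9e-05) and FADS2 by 0.86 (adjusted p = 0.00545) against 0 h, and ABCA1, ACAT2, ACLY and EBP fell too. Other settings ended these calls: FADS2 against 0 h was lost without array 1 at 0 h (-0.455, adjusted p = 0.220), without either 36 h array, with array weights, with arrays centred on their medians and in a fit of the line alone (adjusted p = 0.333). FASN against 0 h was lost without array 2 at 36 h (adjusted p = 0.0535) and in a fit of the line alone (adjusted p = 0.105). Against 8 h both were lost in that fit (adjusted p = 0.164 and 0.167), without array 2 at 8 h, and without array 2 (FASN) or array 1 (FADS2) at 36 h. For both genes the 2 arrays at 36 h lay below all 4 earlier arrays.

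The difference of these changes from the mean of the other 8 lines was tested, and 2 members differed, against 0.714% of all probe sets. The difference, HEP-G2 minus the others, was -1.12 ± 0.21 for FASN and -0.97 ± 0.18 for FADS2 (SE; adjusted p = 0.00377 for each). Without the 3 arrays that stood apart 7 members differed, FASN by -1.33, FADS2 by -1.15, HMGCS1 by -0.996, ABCA1 by -0.92, FADS1 by -0.91, ACAT2 by -0.79 and ACACA by -0.79. The count was 1 without either HEP-G2 array at 36 h and 4 without its array 2 at 0 h. Without array 1 at 0 h it was also 1, and neither FASN at -0.855 nor FADS2 at -0.764 passed. Without both Ag09309 arrays at 0 h it stayed at the same 2 genes, FASN at -1.10 and FADS2 at -1.02. In HEP-G2 at 36 h, 8 of 16 proliferation genes also fell, with a median of -0.89, and CYP24A1 was not called. CYP24A1 was already high in HEP-G2 at 0 h, by 3.14 ± 0.25 over the mean of the other 8 lines (limma adjusted p = 5.4e-13). The part of the proliferation genes and of CYP24A1 in the result was not tested.

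The third question was how high the genes stood before calcitriol. Hepatic cells are known for making cholesterol and fat, and HEP-G2 had the highest mean of the 9 lines for FASN, SCD and each of the 9 sterol branch genes. Its arrays overlapped those of the next line for FASN and for all sterol branch genes but TM7SF2, with gaps as small as 0.0197 for EBP, so these first places are not beyond the spread. Among the other fatty acid synthesis genes HEP-G2 was in place 1 for ACLY, 2 for FADS1, 4 for ELOVL6, 5 for ACACA and 6 for FADS2. In the mevalonate branch it was in place 1 for ACAT2, HMGCS1, MVK and MVD, 2 for FDPS, 3 for IDI1 and 8 for PMVK. Against the mean of the other 8 lines, 24 members were higher and 4 lower, where 54.8% of all probe sets were called. Without the 3 arrays that stood apart, 25 were higher and 3 lower. All 9 sterol branch genes were higher, from LSS at 0.55 ± 0.14 to DHCR7 at 1.29 ± 0.15. Several of these sizes leaned on array 1 of HEP-G2 at 0 h. Without it the difference was 0.28 for SC5D, 0.30 for NSDHL, 0.39 for LSS, 0.39 for CYP51A1 and 0.41 for MSMO1. DHCR7 stayed at 1.105 or more and EBP at 0.607 or more with any single array left out. SCD was higher by 1.94 ± 0.17, ABCA1 by 1.94 ± 0.14, ACAT2 by 1.36 ± 0.15 and FASN by 1.08 ± 0.15.

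The 2 retention proteins stood at opposite ends in HEP-G2. INSIG1 read 4.45 to 5.25 on its 6 arrays over all times, against 6.25 to 10.05 on the 48 others, and at 0 h its difference from the mean of the other lines was -2.95 ± 0.16 (adjusted p = 4.86e-18). INSIG2 read 7.55 to 8.55 in HEP-G2 against 5.07 to 6.90 on the 48 others, and at 0 h was higher by 1.74 ± 0.22 (adjusted p = 5.02e-08). Neither range overlapped. INSIG1 lay below the array median on 6 of the 54 arrays, those of HEP-G2. The other lower genes in HEP-G2 were MYLIP at -0.72, STARD4 at -0.60 and PMVK, the phosphomevalonate kinase, at -0.35. Without the 3 arrays that stood apart STARD4 was at -0.30 and did not pass (adjusted p = 0.132), and without array 1 of HEP-G2 at 0 h neither MYLIP at -0.33 nor PMVK at -0.07 passed. The count of 28 fell to 17 without array 1 of HEP-G2 at 0 h.

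**Figure D4:**
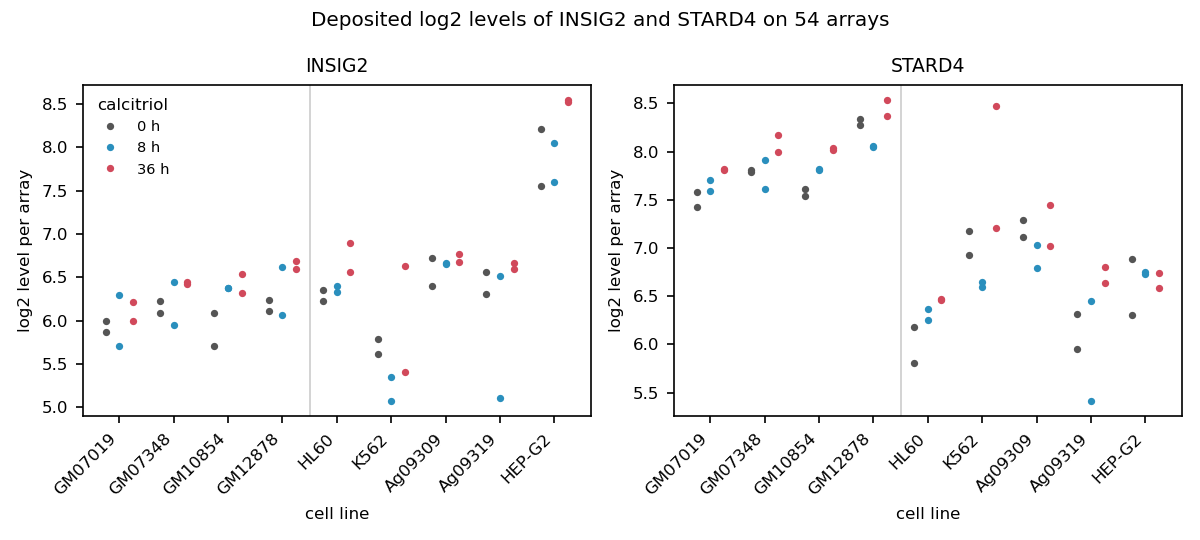
Deposited log2 level of INSIG2 and STARD4 on each of the 54 arrays, by line and time (grey 0 h, blue 8 h, red 36 h; 1 point per array). INSIG2 lies at 7.55 or above on every HEP-G2 array and at 6.90 or below on every other array.

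The order of INSIG1 at 0 h, as means of 2 arrays, was K562 at 8.68, GM07348 at 8.15, GM10854 at 8.11, GM12878 at 8.05, GM07019 at 7.99, HL60 at 7.78, Ag09309 at 6.98, Ag09319 at 6.34 and HEP-G2 at 4.81. Arrays of neighbouring lines overlapped among the 4 lymphoblastoid lines and nowhere else in this order. The order of SCD was HEP-G2 at 9.67, K562 at 8.80, GM07348 at 8.30, GM12878 at 8.13, GM10854 at 7.97, HL60 at 7.92, GM07019 at 7.64, Ag09309 at 6.86 and Ag09319 at 6.27, with overlap between GM12878 and GM10854 and between GM10854 and HL60.

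Against the mean of the 6 blood lines, the fibroblast lines had 18 members lower and 5 higher at 0 h, where 51.5% of all probe sets were called. All 7 mevalonate branch genes were lower. The difference was -1.56 ± 0.13 for SCD, -1.47 ± 0.12 for INSIG1 and -1.42 ± 0.17 for HMGCS1, while ELOVL6 was higher by 1.21 ± 0.16 and ABCA1 by 1.14 ± 0.10. With Ag09319 alone, 18 were lower and 3 higher, ABCA1, ELOVL6 and FADS2. The differences were then -1.86 for SCD, -1.79 for INSIG1, -2.04 for HMGCS1, 0.87 for ELOVL6 and 1.60 for ABCA1. Against the other 5 lines, the lymphoblastoid lines differed in 1 member, PMVK, higher by 0.75 ± 0.13 (adjusted p = 0.0173; 3% of all probe sets called), and in a second, STARD4, without both Ag09309 arrays at 0 h.

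Correlations between members were taken within lines as a description. Over the 27 group means, each taken minus its line's mean, the median Pearson correlation over all 496 pairs of members was 0.52. It was 0.71 within fatty acid synthesis, 0.63 within the sterol branch, 0.52 within the mevalonate branch, 0.48 within the control genes and 0.19 among the LXR targets. The members closest to the mean of the others were DHCR7 at 0.95, SCD at 0.93 and FADS1 at 0.92, and the farthest were TM7SF2, a sterol reductase, at -0.10, PMVK at -0.07, ABCG1 at 0.09 and SCAP at 0.11. No such value was computed for other genes. These values describe the arrays, which share scaling and the 3 libraries that stood apart, and carry no test.

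Of the other pathway genes, 26 of a list of 31 were measured, among them acetyl-CoA suppliers, elongases, sterol esterification and lysosomal transport genes. None was called over the 9 lines or over the 4 lymphoblastoid lines at any time, with medians at 36 h of 0.08 and 0.09. In single lines SOAT1, which esterifies cholesterol for storage, rose by 1.64 ± 0.24 in HL60 at 36 h (adjusted p = 3.66e-05), and the change differed from that of K562 by 1.65 ± 0.34 (adjusted p = 0.0177). ACSS2, which makes acetyl-CoA from acetate, rose by 1.18 ± 0.22 in K562 from 8 h to 36 h (adjusted p = 0.00910, with 0.139% of all probe sets called). In Ag09319 9 of the 26 rose over the same interval, where 18% of all probe sets were called. They were led by ME1 by 1.49, LIPA by 1.33 and LPIN1 by 0.96. TMEM97, a sterol-regulated membrane protein named here after its value was seen, differed in its change between HEP-G2 and the other 8 lines by -0.73 ± 0.18 (adjusted p = 0.0446). The values of these other genes that use K562, Ag09319 or HEP-G2 include arrays that stood apart, and they are given only with them.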

How the data were processed

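Total RNA of 9 lines at 3 times was measured on Affymetrix Gene 1.0 ST arrays, 2 per group. Per the submitters' processing notes, the deposited log2 values came from RMA in Affymetrix Expression Console 1.0; filters and build were not given in the sources used here. RMA includes quantile normalization, yet array medians differed, and whether all arrays were processed together was not given. Of 33297 probe sets, 21214 had a gene entry and 19460 had 1 symbol. Changes were fitted with limma 3.58.1 (R 4.3.3; lmFit and eBayes, two-sided) on all 19460, with Benjamini-Hochberg adjustment and a threshold of 0.05. For fits over lines, each pair of arrays gave 1 mean and lines served as replicates; single lines, line differences and HEP-G2 or fibroblast levels came from 1 fit of 27 groups to 54 arrays, whose p-values measure the spread between arrays, which may be technical. Scripts were tested on simulated data. The number of arrays limits the precision. Values and statistics were given for members called over 9 or over 4 lines, the 5 greatest called changes in each line, and SREBF1, SREBF2, SCAP, INSIG1 and INSIG2 always; of other pathway genes, those called over lines or the 3 greatest called in a line; CYP24A1 and VDR as a check. Members and lists were chosen with earlier results of these data known. The E-box was searched, the DR3 spacing was corrected, and the fits without both Ag09309 arrays at 0 h were added, after the data were seen. Correlations of same-numbered deviations between times ran from -0.41 to 0.58; all 3 were over 0.1 in K562, GM07348 and GM12878 and not in the other 6 lines, so numbers were not used as a block.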

Additional observations from a re-analysis of the deposited data

Results flagged for a closer look

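SQLE in the 4 lymphoblastoid lines at 36 h against 0 h: the change in GM07348, 0.1965, lay apart from the other 3 lines, of which the nearest was 0.3871; the gap was 0.853 of the range. Of 22 changes screened this was the one beyond the limit, and chance passes about 1 in 20. In HEP-G2, FASN (-1.115) and FADS2 (-0.9673) changed differently at 36 h from the mean of the other 8 lines by the test of that difference.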

How the results depend on the processing

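Of 98 calls of named members, recomputed in 3901 combinations with a setting, 3650 kept direction and threshold, 251 lost the threshold and 0 reversed. For HEP-G2 and fibroblast levels at 0 h, each of the 54 arrays was left out in turn, also arrays outside the comparison. Such combinations make up most of the total, so it says little about the calls of change. From 8 h to 36 h over 9 lines, leaving out a line kept the INSIG1 call in 2 of 9 fits and the CYP51A1 call in 9 of 9. The other CYP51A1 probe set did not pass on all lines (limma adjusted p = 0.133). Counts of called members moved as follows, and the causes were not tested. Over 9 lines, 36 h against 0 h (2 called): 1 in the 6 lines of the first title style, 0 in the 3 of the second, and 0 to 3 leaving out a line. Over 9 lines, 36 h against 8 h (5): 2 after quantile normalization, 9 with a mean level of at least 5, 2 without the 3 arrays standing apart, 9 without both Ag09309 arrays at 0 h, 0 in either title style, and 2 to 11 leaving out a line. Over 4 lymphoblastoid lines: 36 h against 0 h (9), 14 with the level filter and 1 to 15 leaving out a line; 36 h against 8 h (6), 2 after quantile normalization and 1 to 5. Between lines at 36 h: the fibroblast pair (0), 1 without the 3 arrays and 1 with array weights; HEP-G2 against the others (2), 6 after quantile normalization, 7 without the 3 arrays and 1 to 5 leaving out an array; HL60 against K562 (0), 0 to 2. Levels at 0 h: lymphoblastoid (1), 2 after quantile normalization, 2 with the filter, 2 without both Ag09309 arrays and 0 to 3 leaving out a line; HEP-G2 (28), 17 to 28; fibroblasts (23), 19 to 24. Single lines summed, 36 h against 0 h (4): 10 after quantile normalization, 21 without the 3 arrays, 20 with array weights, 10 in fits of each line alone and 2 to 16; 36 h against 8 h (18): 2 in fits of each line alone and 8 to 40; 8 h against 0 h (0): 1 after quantile normalization, 1 with the filter, 3 without the 3 arrays, 4 with array weights, 1 in fits of each line alone and 0 to 20. With the replicate block these sums were 4, 24 and 0, and no count moved by over 1.5 times. Without both Ag09309 arrays at 0 h the sum at 36 h against 0 h, the sum at 8 h and the fibroblast pair had no value.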

Other observations

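In Ag09309, HMGCS1 read 7.77 and 7.50 at 0 h, 6.59 and 6.64 at 8 h and 7.82 and 7.78 at 36 h, so the 8 h arrays were below the others. The change from 8 h to 36 h was 1.19 ± 0.29 (adjusted p = 0.0504) and from 0 h to 8 h -1.02 ± 0.29 (adjusted p = 0.0631). With the 3 divergent arrays of other lines left out, the SE was 0.15 and both passed; the second rests on the 0 h arrays that carried B cell markers. FADS2 lay at 5.19 to 6.37 on every array of HL60 and K562 and at 7.32 or above on every other array.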
